A study of Mus musculus with 48 samples.

Results

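Synaptosomes (SYN) are pinched-off nerve terminals, with attached pieces of the postsynaptic membrane, that are isolated from homogenised brain on a sucrose gradient. They hold messenger RNAs that are translated at the synapse, and they are depleted of nuclei and cell bodies. The RNA described here is the SYN input, the RNA taken before ribosomes were pelleted through a sucrose cushion, from the cerebral cortex of wild-type C57BL/6 mice. It was compared between 4 mice at 18 months (18m, mice 195 to 198) and 4 mice in the middle age group (5m, mice 191 to 194), which are 8 of the 48 libraries of the series. Titles and protocol differ on the middle group, with 6 months in the former and 5 months in the latter, and it is called 5m below. The series also holds the total homogenate (TH) of the same cortices, ribosome-associated RNA (SC) from both fractions, and mice of 3 weeks (3w). All animals were untreated, each library came from 1 mouse, and all libraries were depleted of rRNA. The question of the comparison was which transcripts of the synaptic fraction differed with age in adult animals.

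The results turn on small nuclear RNAs and on immediate early genes. Small nuclear RNAs (snRNAs) are the RNA cores of the spliceosome: U1 pairs with the start of an intron, U2 pairs with the branch point, and both work in the nucleus after assembly with proteins in the cytoplasm. Immediate early genes such as Arc are transcribed within minutes of neuronal activity, and Arc mRNA is carried into dendrites and translated near synapses.

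The 5m libraries held 2613680 to 3840102 counts and the 18m libraries 2843173 to 7879536 counts, so depth was higher on average in the older group. The label of the fraction was checked at 5m against TH. By edgeR's quasi-likelihood test (adjusted p under 0.05), 55 of 62 postsynaptic genes were higher in SYN and 3 lower. Of 46 presynaptic genes 30 were higher and 12 lower, and of 12 nuclear long noncoding RNAs 1 was higher and 10 lower. Of all 17860 genes 72.7% differed, 32.6% higher in SYN and 40.1% lower. Syp, which encodes a synaptic vesicle protein, was higher in SYN by 2.89 on the log2 scale, and the nuclear RNA Malat1 was lower by a log2 value of -2.62. All 10 astrocyte and all 10 microglia markers were also higher in SYN than in TH, so glial RNA was part of the fraction. Their median log2 values, SYN over TH, were 1.51 and 1.73. These exceeded the medians of the postsynaptic list (1.24), the presynaptic list (0.90) and the 10 neuron markers (0.23, with 5 higher and 3 lower). As these are bulk samples, fewer particles of a type and less RNA per particle cannot be told apart.

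Few genes passed the test for age, and changes too small to detect at this depth and spread between mice are not excluded. Of 12975 genes tested in the 12 SYN input libraries, 18 differed between 18m and 5m (0.139% of those tested), 4 higher and 14 lower at 18m (edgeR's quasi-likelihood test, Benjamini-Hochberg adjusted p under 0.05). At an unadjusted p under 0.05, 584 genes were higher (4.5%) and 630 lower (4.86%). DESeq2 called 7 genes higher and 47 lower, among them all 18. The calls fell unevenly over gene classes. They were 8 of 36 small noncoding genes (22.2%), all lower, against 3 coding genes higher (0.0256% of 11726) and 4 lower (0.0341%), 1 of 362 long noncoding genes higher (0.276%) and 2 of 803 pseudogenes lower (0.249%). The 8 small noncoding calls were copies of 1 RNA, U2, and 1 of 15 RNAs passed when near-identical copies were summed. The median log2 fold change was 0.02 over coding genes and -1.21 over small noncoding genes, and all 36 small noncoding genes tested lay below 0.

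**Figure D1:**
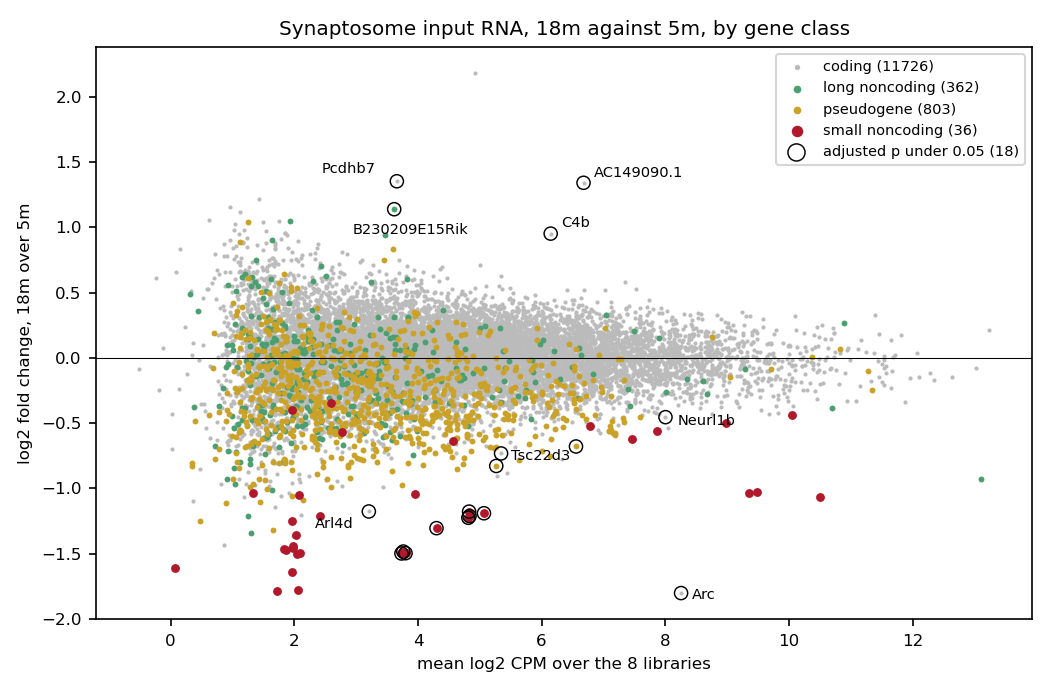
Log2 fold change of each gene tested, 18m over 5m in SYN input (y axis), against its mean log2 CPM over the 8 libraries (x axis), coloured by gene class, with rings around the 18 genes that passed the test. The 36 small noncoding genes all lie below 0, while the 11726 coding genes are spread about 0.

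The small noncoding genes took 0.689%, 0.786%, 0.637% and 0.903% of all counts in the 5m mice 191 to 194. In the 18m mice 195 to 198 they took 0.312%, 0.62%, 0.183% and 0.605%. Every 18m mouse lay below every 5m mouse. The mean share was 0.754% ± 0.117 (SD, n = 4) at 5m and 0.43% ± 0.217 (SD, n = 4) at 18m, with an exact two-sided permutation p of 0.0286, the smallest that 4 against 4 mice allow, and p = 0.0714 after adjustment over the 5 classes examined. At 3w the share was 0.436% ± 0.161 (SD, n = 4), so the 5m group held the highest share of the 3 ages. Coding genes moved the other way, from 90.8% ± 0.764 to 92.1% ± 0.798 (SD, n = 4 each, exact permutation p = 0.0286, adjusted p = 0.0714). The mitochondrially encoded share was 3.13% ± 0.598 at 5m and 3.03% ± 0.348 at 18m (SD, n = 4 each, exact permutation p = 0.771). Only 36 of the 609 small noncoding genes with at least 1 count passed the filter on low counts, and 75% of the class's counts came from 4 genes (Gm23935, Rn7sk, Rn7s2 and Rn7s1).

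All 8 small noncoding genes that passed the test were copies of the U2 snRNA gene. U2 is encoded by many near-identical genes, and 9 of them were measured deeply enough to be tested. Their transcripts are printed here, from the GENCODE annotation of build GRCm38, because they show why the 8 calls are not 8 separate RNAs. Rnu2-10 (chr11:101658238-101658428, plus strand) stands for 4 genes with identical transcripts, the others being Gm24950, Gm23971 and Gm23849. In its sequence the capitals mark GTAGTA, bases 33 to 38, which pair with the branch point of introns. In the other sequences the capitals mark bases that differ from Rnu2-10, counted from 1 at the 5′ end.
Rnu2-10: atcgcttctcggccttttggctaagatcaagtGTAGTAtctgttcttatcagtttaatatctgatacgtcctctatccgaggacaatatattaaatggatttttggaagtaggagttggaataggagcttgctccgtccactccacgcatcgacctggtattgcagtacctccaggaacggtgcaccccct
Gm26316: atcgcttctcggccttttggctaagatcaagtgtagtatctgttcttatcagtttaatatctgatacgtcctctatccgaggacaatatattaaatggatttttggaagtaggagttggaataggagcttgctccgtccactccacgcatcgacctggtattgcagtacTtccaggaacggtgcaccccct
Gm23444: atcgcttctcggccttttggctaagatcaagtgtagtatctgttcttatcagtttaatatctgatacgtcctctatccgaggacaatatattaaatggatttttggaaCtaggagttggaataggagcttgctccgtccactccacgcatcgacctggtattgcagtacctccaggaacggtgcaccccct
Gm24497: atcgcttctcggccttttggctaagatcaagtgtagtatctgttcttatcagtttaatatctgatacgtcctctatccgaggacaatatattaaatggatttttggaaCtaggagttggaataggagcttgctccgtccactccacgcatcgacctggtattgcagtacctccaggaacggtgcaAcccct
Gm25939: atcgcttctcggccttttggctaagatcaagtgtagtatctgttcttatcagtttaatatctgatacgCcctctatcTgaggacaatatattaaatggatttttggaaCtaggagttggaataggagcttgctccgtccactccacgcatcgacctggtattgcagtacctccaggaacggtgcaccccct
The substitution in Gm26316 is C170T, that in Gm23444 is G109C, those in Gm24497 are G109C and C186A, and those in Gm25939 are T69C, C78T and G109C. Gm23472 has the same sequence as Gm23444. All 9 transcripts are 191 bases long, so a read from a stretch they share cannot be assigned to 1 copy. Gm23971 and Gm23849 were named after their values were seen.

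The U2 genes lie in 3 places. Gm26316 (chr11:101604850-101605040), Gm23849, Gm24950, Gm23971 and Rnu2-10 form a cluster on chromosome 11, where Gm23849 sits within the body of the gene Rdm1. Gm23444 lies alone at chr11:83271498-83271688. Gm23472 (chr1:72236946-72237136), Gm24497 (chr1:72244213-72244403) and Gm25939 (chr1:72255008-72255198) lie in the body of the gene D230017M19Rik on chromosome 1, outside its exons. Copies from all 3 places were lower at 18m.

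Rnu2-10 was measured at 55.6, 45.6, 37.5 and 37.1 CPM (counts scaled to a library of fixed size, with TMM factors) in the 5m mice. It was at 22.9, 21.3, 14.1 and 16.1 CPM in the 18m mice. The groups did not overlap, a state shared by 2.92% of all tested genes in the direction lower at 18m, and the log2 fold change was -1.23 ± 0.176 (SE, adjusted p = 0.00474). Gm23444, which carries G109C, was measured at 29.2, 24.3, 23.9 and 20.3 CPM at 5m and at 9.09, 11.1, 4.82 and 8.31 CPM at 18m, with -1.50 ± 0.195 as the log2 fold change (SE, adjusted p = 0.00212). In these 2 genes, as in the other 6, every 18m mouse lay below every 5m mouse. Over the 8 genes the log2 fold changes ran from -1.50 to -1.18 and the adjusted p-values from 0.0021 to 0.0088. Gm25939, the copy with the most substitutions, was the 9th tested and did not pass, at a log2 fold change of -0.57 ± 0.285 (SE, adjusted p = 0.55).

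When the 14 U2 genes with counts were summed into 1 row, the U2 level was 358, 314, 268 and 250 CPM in the 5m mice and 133, 152, 86.3 and 117 CPM in the 18m mice. The mean was 297.5 ± 48.5 CPM at 5m and 122 ± 27.8 CPM at 18m (SD, n = 4 each), with a log2 fold change of -1.28 ± 0.155 (SE, adjusted p = 0.00157 in edgeR's test). At 3w it was 194 ± 23.9 CPM (SD, n = 4), between the adult ages. The summed U2 passed the test without each of the 8 mice in turn, with log2 fold changes from -1.40 to -1.16. How reads that fit several copies were counted is not stated, so the summed CPM depend on that unknown step.

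**Figure D2:**
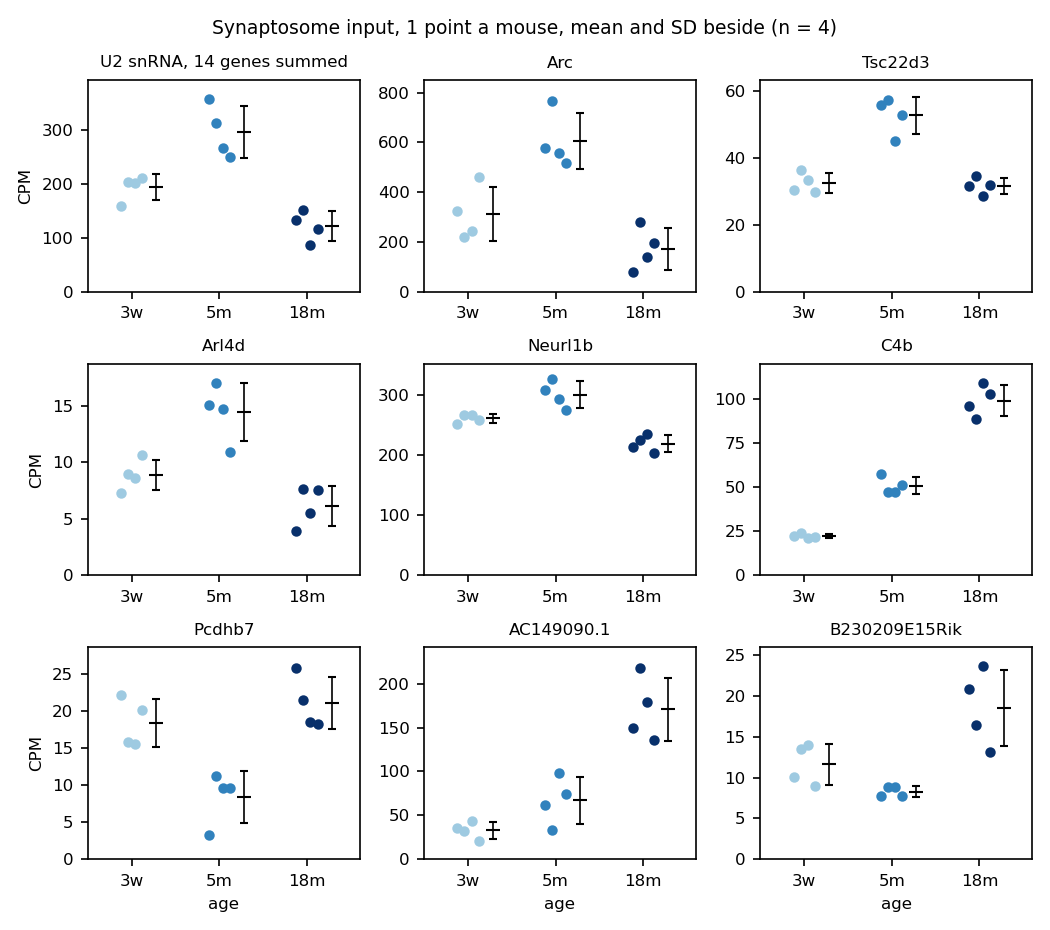
CPM (y axis, starting at 0) of the summed U2 genes and of 8 further genes that passed the test, in SYN input of mice of 3 ages (x axis), 1 point a mouse, with the mean and SD beside the points. In all 9 panels the 4 mice of 18m and the 4 mice of 5m do not overlap, and U2, Arc, Tsc22d3, Arl4d and Neurl1b had their highest mean at 5m.

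U1 copies were tested at 12 genes, and none passed (log2 fold changes -1.78 to -0.40, adjusted p from 0.0622 to 0.817), although 10 of the 12 were lower without overlap between the ages, where 2.92% of all genes were. These copies are 97.56% to 100% identical to Rnu1a1 and share reads, so the 12 are not separate RNAs. DESeq2 called 6 of them lower. Summed over 25 genes, U1 was at 65, 53.7, 75.8 and 155 CPM in the 5m mice and at 18.8, 44.4, 18.6 and 43.1 CPM in the 18m mice. The 5m mice spread over a wide range, with mouse 194 highest, and the log2 fold change was -1.45 ± 0.318 (SE, adjusted p = 0.185). The SE of 0.318 compares with 0.155 for summed U2.

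The other small noncoding RNAs did not pass edgeR's test one by one. Summed by near-identical copies, the class came to 15 RNAs, all with a log2 fold change below 0, of which 1 (U2) passed the test and 9 had an unadjusted p under 0.05. Scarna2, a guide RNA that directs the modification of snRNAs in Cajal bodies, had a mean of 22.6 ± 4.02 CPM at 5m and 10.9 ± 2.09 CPM at 18m (SD, n = 4 each), with a log2 fold change of -1.04 ± 0.231 (SE, adjusted p = 0.191). DESeq2 called Scarna2 lower (adjusted p = 0.0134). The signal recognition particle RNA, which targets nascent secretory proteins to the endoplasmic reticulum and is counted here as Rn7s1 and Rn7s2, had a mean of 2230 ± 533 CPM at 5m and 1084 ± 738 CPM at 18m (SD, n = 4 each), a log2 fold change of -1.04 ± 0.437 (SE, adjusted p = 0.477). Rn7sk, which holds back the elongation factor P-TEFb, was at 1310 ± 285 and 964 ± 489 CPM (SD, n = 4 each, log2 fold change -0.44 ± 0.305 SE, adjusted p = 0.681). The 18m mice were split in both RNAs. In mice 195 to 198 the signal recognition particle RNA was at 595, 1680, 313 and 1750 CPM. Rn7sk was at 641, 1320, 455 and 1440 CPM, so mice 196 and 198 lay well above mice 195 and 197. Rpph1, the RNA of ribonuclease P, gave -0.50 ± 0.214 (SE, adjusted p = 0.485), Rmrp, the RNA of the related ribonuclease MRP, gave -0.52 ± 0.303 (SE, adjusted p = 0.617) and Rn7s6, a further copy of the signal recognition particle RNA, gave -1.22 ± 0.376 (SE, adjusted p = 0.32). Of the 6 structural noncoding RNAs on the list, 0 passed with edgeR and 0 with DESeq2, and 4 had an unadjusted p under 0.05, all lower. Exons of Rmrp, Rpph1, Rn7s1, Rn7s2 and Rn7s6 overlap those of other annotated genes, and reads there may have been left uncounted. Gm23935, a short gene annotated as a miRNA that was the most abundant of the class, had a log2 fold change of -1.07 ± 0.368 (SE, adjusted p = 0.357). No snoRNA passed the filter on low counts, among 142 with at least 1 count.

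The fall of U2 was set beside the same contrast in the other fractions of the same mice. In the homogenate, U2 moved the opposite way. The summed U2 level in TH was 1030, 869, 876 and 1060 CPM in the 5m mice and 1210, 1500, 1380 and 1620 CPM in the 18m mice, without overlap and higher at 18m, with a log2 fold change of 0.57 ± 0.0943 (SE, adjusted p = 0.0024). The test of the difference between the age change in SYN and that in TH gave -1.83 ± 0.189 on the log2 scale (SE, adjusted p = 3.88e-06, and 3.72e-07 with the mouse as a block). All 9 tested U2 genes passed this test of the difference, at values from -2.10 to -1.18, where 13.1% of 183 small noncoding genes and 1.41% of all genes passed in that direction. The 9 share reads and stand for 1 RNA. The 24 small noncoding genes that make up the 13.1% include these 9 and 10 U1 copies. Of the 15 RNAs summed by copies, 5 passed it, U1 (-1.59, adjusted p = 0.0209), Scarna2 (-1.19, adjusted p = 0.0119), Gm23935 (-1.67, adjusted p = 0.0413) and Rpph1 (-0.97, adjusted p = 0.0465) beside U2, and with the mouse as a block the signal recognition particle RNA made a 6th (-1.68, adjusted p = 0.0269). In TH 12 of the 15 had a log2 fold change above 0, and 7 were called higher and 0 lower. In ribosome-associated SYN RNA, U2 was at 201, 82.5, 104 and 113 CPM at 5m and at 82.3, 84.8, 69.9 and 152 CPM at 18m. These groups overlapped, and the log2 fold change was -0.37 ± 0.406 (SE, adjusted p = 0.663). The age change in SC_SYN was higher than that in SYN input by 0.91 ± 0.469 on the log2 scale, which did not pass the test (unadjusted p = 0.0633 in edgeR). All 32 small noncoding genes tested in SC_SYN had a log2 fold change below 0, with a median of -0.50, and 0 passed with edgeR or DESeq2 (5 lower at an unadjusted p under 0.05).

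**Figure D3:**
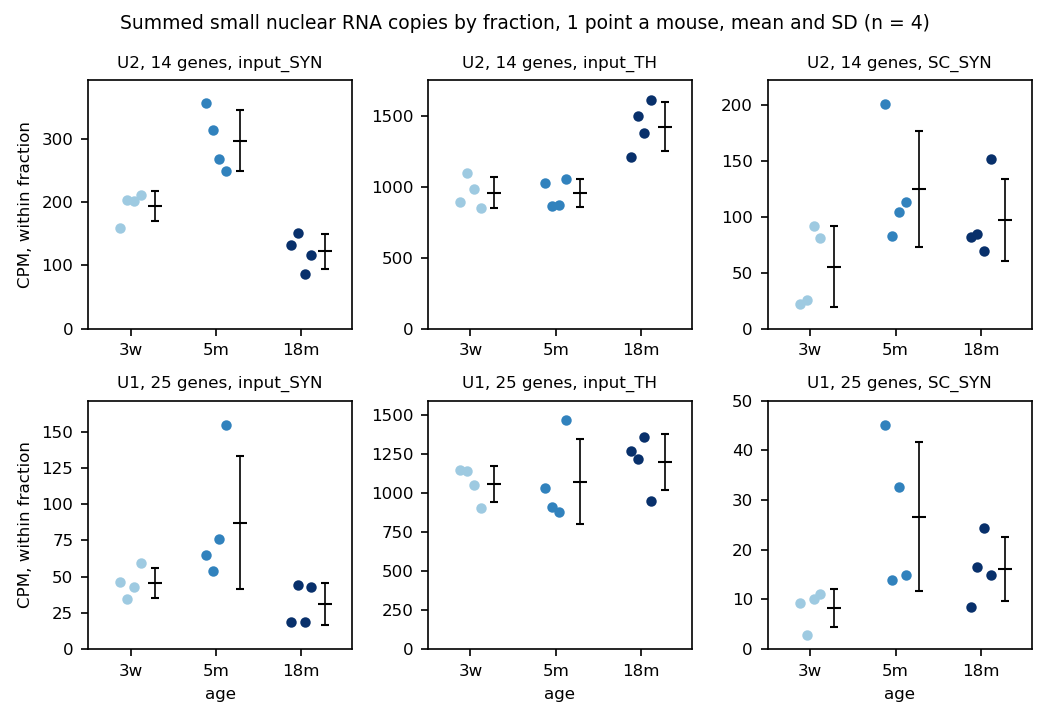
CPM of U2 (14 genes summed, top row) and U1 (25 genes summed, bottom row) in SYN input, TH input and ribosome-associated SYN RNA, each scaled within its fraction (y axes differ and start at 0), at 3 ages, 1 point a mouse with the mean and SD beside. U2 is lower at 18m than at 5m in SYN input and higher at 18m in TH input, without overlap in either, while the ages overlap in SC_SYN.

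Nuclear long noncoding RNAs showed no call in SYN. Malat1 was at 1771 ± 277 CPM at 5m and 2138 ± 706 CPM at 18m (SD, n = 4 each, log2 fold change 0.27 ± 0.213 SE, adjusted p = 0.714). Snhg14 had a log2 fold change of -0.16 ± 0.144 (SE, adjusted p = 0.748). Of the 12 nuclear long noncoding RNAs tested, 0 passed with edgeR and 0 with DESeq2, 1 was higher and 1 lower at an unadjusted p under 0.05, and their median was -0.11 against 0.0036 over all genes.

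Exonic length and GC content moved with the fold change, and these values stand beside every result on short RNAs. Over coding genes of SYN input the median log2 fold change rose from -0.29 in the 38 genes of up to 500 bases to 0.08 in the 2480 genes over 8000 bases. It fell from 0.14 in the 632 genes of up to 40% GC to -0.20 in the 573 genes over 60% GC. In TH both trends ran the other way, from 0.21 to -0.06 over length and from -0.26 to 0.24 over GC. Pseudogenes, which are short copies of mRNAs, had a median of -0.27 in SYN, and the 121 named as copies of ribosomal protein genes had a median of -0.45. When a smooth trend on GC and length was removed from each library, 5 genes passed in SYN in place of 18, and 0 of the 9 U2 genes did (log2 fold changes -1.01 to -0.08). The trend was fitted to all genes and the snRNAs lie at its short end, so that it can remove a change shared by short RNAs. When GC alone was taken out, with the trend read from coding genes, 8 of the 9 U2 genes passed. The test of the difference between SYN and TH still called 8 of 9 U2 genes with both trends removed. It called 0 of 12 U1 genes then and 1 with GC alone removed, in place of 10. The part of the trends in the small RNA results was otherwise not tested.

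**Figure D4:**
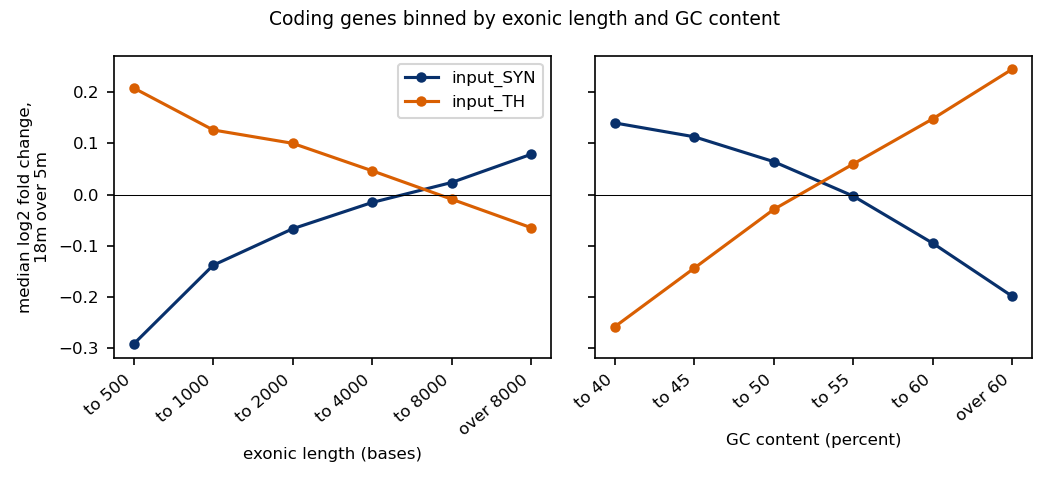
Median log2 fold change of coding genes, 18m over 5m (y axis), in 6 bins of exonic length (left) and 6 bins of GC content (right), for SYN input and TH input. In SYN input short and GC-rich genes lie below 0, and in TH input they lie above 0.

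Coding genes that were lower at 18m included Arc and 3 others. Arc (chr15:74669083-74672570), which encodes a regulator of AMPA receptor endocytosis at the postsynapse, was at 578, 768, 558 and 516 CPM in the 5m mice and at 78.8, 279, 138 and 194 CPM in the 18m mice. The highest 18m mouse was far below the lowest 5m mouse, and the log2 fold change was -1.80 ± 0.29 (SE, adjusted p = 0.011), the lowest of all genes tested. Its mean at 3w was 312.8 ± 108 CPM (SD, n = 4). The call was lost without mouse 191 or without mouse 192, both of 5m, where the adjusted p reached at most 0.0687. Arc was also lower with age in TH (log2 fold change -1.14, adjusted p = 0.0091) and had a log2 fold change of -1.67 in SC_SYN (adjusted p = 0.155). Its fall in SYN exceeded that in TH by 0.65 on the log2 scale, which did not pass the test (adjusted p = 0.439) but passed with the mouse as a block (adjusted p = 0.0146).

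Tsc22d3 (chrX:140539528-140600659), a glucocorticoid-induced regulator of transcription also named Gilz, was at 55.6, 57.2, 44.9 and 52.8 CPM in the 5m mice. It was at 31.4, 34.5, 28.5 and 31.7 CPM in the 18m mice, and the log2 fold change was -0.73 ± 0.117 (SE, adjusted p = 0.011). It fell in TH as well (-0.59, adjusted p = 0.00028) and in SC_SYN (-0.98, adjusted p = 0.00873), and no difference between SYN and TH was detected (-0.13, adjusted p = 0.629). The call in SYN was lost without mouse 191, 192 or 195, with an adjusted p of at most 0.0727.

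Arl4d and Neurl1b were the remaining coding genes that fell, and their calls were near the threshold. Leaving out any mouse but 194 took the call from Arl4d, and leaving out any but 197 took it from Neurl1b. Over all alternatives the log2 fold changes stayed within -1.30 to -1.01 for Arl4d and -0.50 to -0.37 for Neurl1b, with adjusted p-values of at most 0.198 and 0.361. Arl4d (chr11:101665541-101667832), a small GTPase of the ARF family, was at 15.1, 17, 14.7 and 10.9 CPM at 5m and at 3.95, 7.62, 5.5 and 7.55 CPM at 18m, with -1.18 ± 0.22 as the log2 fold change (SE, adjusted p = 0.0412). It had fewer reads than the rule for named genes asks for and was named after its values were seen. Neurl1b (chr17:26414829-26446349), a ubiquitin ligase of the Notch pathway, was at 309, 326, 293 and 275 CPM at 5m and at 213, 226, 235 and 203 CPM at 18m (log2 fold change -0.45 ± 0.0864 SE, adjusted p = 0.0462). The pseudogenes Rps2-ps13 (-0.83 ± 0.154 SE, adjusted p = 0.0412) and Atp6v0c-ps2 (-0.68 ± 0.127 SE, adjusted p = 0.0412), copies of a ribosomal protein gene and of a subunit gene of the vesicular proton pump, completed the genes that were lower. Both lost their call without any mouse other than 197. They share sequence with their parent genes, so their reads are uncertain, and the rule for named genes did not cover them either.

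At 18m 4 genes were higher, among them C4b. C4b (chr17:34728380-34743882), which encodes complement component C4, a protein that tags surfaces for uptake by phagocytes, was at 57.3, 47.5, 47.5 and 51.5 CPM in the 5m mice. It was at 96, 88.8, 109 and 103 CPM in the 18m mice. The groups stood far apart, and the log2 fold change was 0.95 ± 0.107 (SE, adjusted p = 0.00101). C4b was at 22.4 ± 1.11 CPM (SD, n = 4) at 3w, so that the mean rose over the 3 ages. It was called under all 18 alternatives, the only one of the 18 called genes of which this was true, with adjusted p-values of at most 0.0113. Its rise in TH was 0.78 on the log2 scale (adjusted p = 0.0041). Reads shared with the paralogue C4a cannot be assigned with certainty.

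AC149090.1, a predicted coding gene on the unplaced scaffold JH584304.1, was at 61.4, 33.6, 98.6 and 74.7 CPM at 5m and at 150, 218, 179 and 136 CPM at 18m (log2 fold change 1.34 ± 0.241 SE, adjusted p = 0.0366). The long intergenic RNA B230209E15Rik (chr7:61529871-61615327) was at 7.71, 8.89, 8.83 and 7.74 CPM at 5m and at 20.9, 16.5, 23.7 and 13.2 CPM at 18m (log2 fold change 1.14 ± 0.21 SE, adjusted p = 0.0412). The protocadherin Pcdhb7, a member of a gene cluster for neuronal adhesion proteins, was at 3.3, 11.2, 9.57 and 9.61 CPM at 5m and at 25.9, 21.5, 18.6 and 18.3 CPM at 18m (log2 fold change 1.35 ± 0.254 SE, adjusted p = 0.0412). In all 3 genes every 18m mouse was above every 5m mouse, a state shared by 3.28% of all tested genes. Pcdhb7 was at 18.45 ± 3.24 CPM (SD, n = 4) at 3w, close to the 18m level, whereas AC149090.1 was lowest at 3w with 32.7 ± 9.65 CPM (SD, n = 4). The calls of these 3 genes were near the threshold, while the folds held. When 1 mouse was left out, the call of AC149090.1 was kept without mouse 193, 197 or 198 and lost without any other, that of Pcdhb7 was kept without mouse 197 or 198, and that of B230209E15Rik without mouse 198. Over all alternatives the log2 fold change ran from 1.13 to 1.58 for AC149090.1 (adjusted p at most 0.153), from 1.062 to 1.51 for Pcdhb7 (at most 0.188) and from 1.02 to 1.28 for B230209E15Rik (at most 0.188). An exon of the gene Ube2nl lies within the body of B230209E15Rik on the same strand, but it overlaps none of the exons of B230209E15Rik. AC149090.1 also rose in SC_SYN (1.82, adjusted p = 0.015) and in TH (1.25, adjusted p = 0.00423). Pcdhb7 was higher at 18m in TH as well, at 2.63 to 4.68 CPM at 5m and 6.3 to 8.29 CPM at 18m. The interaction test detected no difference between SYN and TH for Pcdhb7 (0.52, adjusted p = 0.393).

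The gene lists held few calls. Members named below for an unadjusted p under 0.05 were picked after their values were seen. The medians are read against the 0.0036 of all genes and the 0.0308% of genes called higher and 0.108% called lower. Counts at an unadjusted p under 0.05, in this and all following lists, are read against 4.5% of all genes higher and 4.86% lower. Of 24 immediate early genes, 1 (Arc) passed the test and 12 had an unadjusted p under 0.05, all 12 lower, where 4.86% of all genes were. Their median log2 fold change was -0.44, and 22 of 24 lay below 0. Egr1, a zinc finger transcription factor, was at 146.5 ± 8.32 CPM at 5m and 108 ± 34.1 CPM at 18m (SD, n = 4 each, log2 fold change -0.43 ± 0.176 SE, adjusted p = 0.45). DESeq2 called 2 of the list lower, Arc and Nr4a1. The orphan nuclear receptor gene Nr4a1 had a log2 fold change of -0.90 (adjusted p = 0.181 with edgeR and 0.038 with DESeq2), and the AP-1 subunit genes Junb and Fos had -0.76 (adjusted p = 0.272) and -0.72 (adjusted p = 0.363). The summed level of the list was 1450 to 1720 CPM in the 5m mice and 710 to 1180 CPM in the 18m mice. In TH, 12 of these genes were called lower and 0 higher, with a median of -0.42, where 8.18% of all genes were called higher and 7.35% lower.

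Of 16 genes that respond to glucocorticoids, 1 (Tsc22d3) passed and 4 had an unadjusted p under 0.05, all lower, with a median of -0.27. Per1, which is also a clock gene, had a log2 fold change of -0.77 ± 0.163 (SE, adjusted p = 0.104), Ddit4, an inhibitor of the kinase mTORC1, had -0.59 (adjusted p = 0.23) and the kinase gene Sgk1 had -0.46 (adjusted p = 0.385). The most abundant members were not called, with Zbtb16 at 0.17 ± 0.159 and Tsc22d4 at -0.15 ± 0.168 (SE). DESeq2 called 2 of the list lower, Tsc22d3 and Per1. Of 17 clock genes, 0 passed with edgeR, 1 (Per1) was called lower by DESeq2, and 2 were higher and 3 lower at an unadjusted p under 0.05. Tef and Hlf, the most abundant of them, had log2 fold changes of -0.34 and 0.02.

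The lists of synaptic genes held no call in SYN. Of 46 presynaptic genes 0 passed, with a median of 0.04, and of 62 postsynaptic genes 0 passed, with a median of -0.0006 (DESeq2 called 0 in either list). At an unadjusted p under 0.05, 5 presynaptic genes were higher and 1 lower, among them Pclo, a scaffold of the active zone (log2 fold change 0.32 ± 0.0884 SE, adjusted p = 0.23), and Nsf, which recycles the vesicle fusion machinery (0.28 ± 0.0854 SE, adjusted p = 0.281). The 5 postsynaptic genes under that p were all lower, among them Ddn (-0.33 ± 0.089 SE, adjusted p = 0.223) and Cnih2, an auxiliary subunit of AMPA receptors (-0.54 ± 0.164 SE, adjusted p = 0.284). The most abundant members were Syp (-0.15 ± 0.106) and Syt1 (0.14 ± 0.13) on the presynaptic side, and Camk2a (-0.17 ± 0.0901) and Shank1 (-0.34 ± 0.131, SE in each) on the postsynaptic side. The summed levels of both lists overlapped between the ages, at 31400 to 33500 and 31500 to 33600 CPM for the presynaptic list and at 37700 to 41000 and 34900 to 38700 CPM for the postsynaptic list. Without overlap, 3 presynaptic genes were higher and 1 lower, and 0 postsynaptic genes were higher and 5 lower (3.28% and 2.92% of all genes). In the test of the difference from TH, 2 presynaptic genes were more positive and 1 more negative. For postsynaptic genes these were 0 and 4 (1.01% and 1.41% of all genes).

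**Figure D5:**
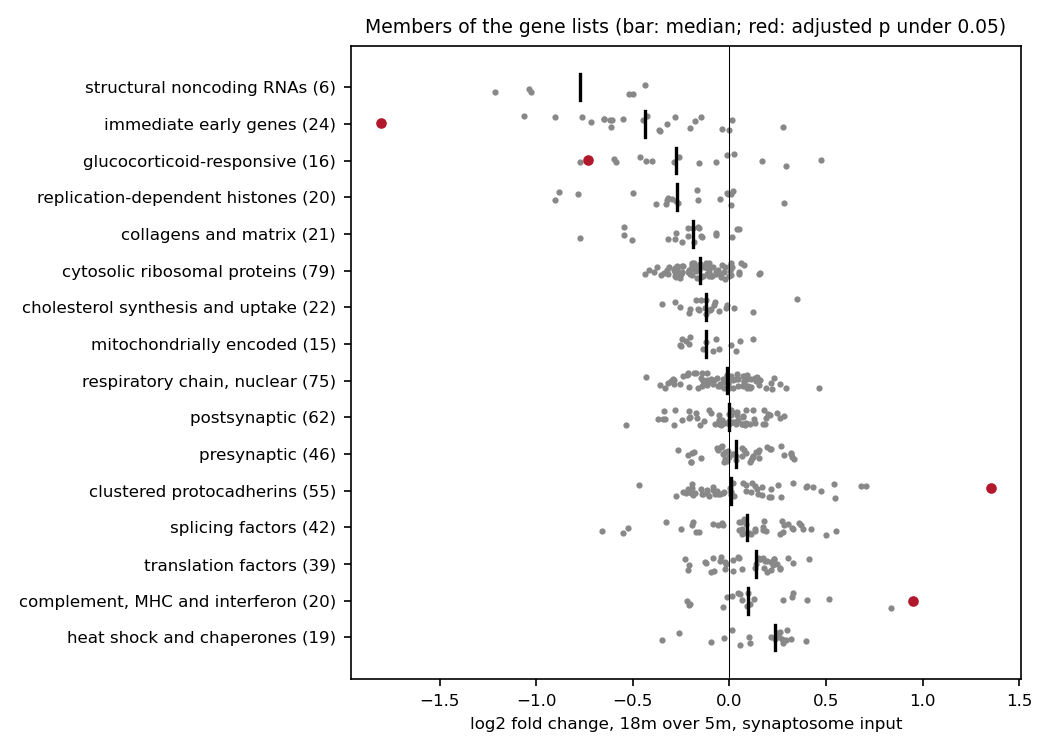
Log2 fold change of each tested member of 16 gene lists in SYN input, 18m over 5m (x axis), 1 row a list with the number tested in brackets, black bars at the median and red points for the members that passed the test. The structural noncoding RNAs and the immediate early genes lie furthest to the left, and the synaptic lists are centred near 0.

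Of 79 cytosolic ribosomal protein genes 0 passed with edgeR or DESeq2, 6 were lower and 0 higher at an unadjusted p under 0.05, and 66 lay below 0, with a median of -0.15. Their summed level was 8090 to 8600 CPM at 5m and 7380 to 7740 CPM at 18m, without overlap, and these are short genes of the kind described above for the length trend. Rps12 had the lowest fold change of them, -0.44 ± 0.113 (SE, adjusted p = 0.202), and the most abundant, Rps14 and Rpl41, had -0.06 ± 0.21 and -0.15 ± 0.0987 (SE). In TH 23 of the list were called higher and 0 lower, where 8.18% of all genes were higher and 7.35% lower. Of 75 nuclear genes of the respiratory chain 0 passed with either tool (3 higher and 1 lower unadjusted, median -0.01), and of 15 mitochondrially encoded genes 0 passed (0 unadjusted, median -0.12). The mitochondrially encoded genes did fall in TH, where 13 of the 15 were called lower.

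Of 55 clustered protocadherin genes 1 (Pcdhb7) passed, and the median was 0.01. At an unadjusted p under 0.05, 7 were higher and 1 lower, where 4.5% and 4.86% of all genes were. Without overlap between the ages, 6 of the list were higher and 0 lower at 18m, where 3.28% and 2.92% of all genes were. Pcdhb2 (0.68 ± 0.188), Pcdhb3 (0.71 ± 0.207) and Pcdhb9 (0.55 ± 0.138, SE in each) were among these 6 and were not called (adjusted p = 0.23, 0.271 and 0.184). Their sequences are alike, so that reads may be shared. In TH 16 of the list were called higher and 0 lower, where 8.18% of all genes were higher and 7.35% lower. Of 20 genes of complement, MHC and interferon signalling 1 (C4b) passed, 2 were higher unadjusted and the median was 0.09. C1qb, a subunit of the first complement component, was at 81.2 ± 9.28 CPM at 5m and 80.7 ± 6.18 CPM at 18m (SD, n = 4 each). Ifi27 had a log2 fold change of 0.52 ± 0.195 (SE, adjusted p = 0.398). A further 19 genes of this list, C3 and the MHC class II genes H2-Aa and H2-Ab1 among them, were too low to test.

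In the remaining lists 0 genes passed with edgeR or with DESeq2, and the counts at an unadjusted p under 0.05 are given for each. Heat shock proteins and chaperones had a median of 0.23 over 19 genes (3 higher unadjusted), among them Hspa8 (0.30 ± 0.104 SE, adjusted p = 0.356). Translation factors had a median of 0.14 over 39 genes (3 higher and 1 lower unadjusted), splicing factors 0.09 over 42 (4 higher and 1 lower), and Ddx5, an RNA helicase and the most abundant of the latter, had 0.38 ± 0.156 (SE, adjusted p = 0.447). Collagens and matrix genes had a median of -0.19 over 21 genes with 6 lower unadjusted, among them Ncan, a brain proteoglycan (-0.21 ± 0.0787 SE, adjusted p = 0.385). Replication-dependent histones had a median of -0.27 over 20 genes (2 lower unadjusted), and genes of cholesterol synthesis and uptake -0.12 over 22 (1 lower unadjusted).

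Markers of the cell types that the fraction could hold held no call. The medians were 0.11 over 10 neuron markers (4 higher and 1 lower at an unadjusted p under 0.05), 0.03 over 10 astrocyte markers (2 higher), -0.01 over 10 microglia markers (1 higher), -0.16 over 9 markers of mature oligodendrocytes (1 higher and 1 lower) and 0.04 over 10 markers of their precursors (1 higher and 1 lower). DESeq2 called 0 of them. Summed levels at 5m and 18m were 7870 to 8850 and 7950 to 8750 CPM for neurons, 10700 to 11300 and 11200 to 13600 CPM for astrocytes, and 509 to 642 and 474 to 630 CPM for microglia. Gfap, the filament protein of astrocytes, had a log2 fold change of 0.27 ± 0.113 (SE, adjusted p = 0.45), and Cldn11, a tight junction protein of myelin, had -0.55 ± 0.138 (SE, adjusted p = 0.182). The choroid plexus and ependyma markers varied most, at 36 to 359 CPM in the 5m mice and 150 to 435 CPM in the 18m mice, while the endothelial list stayed at 31.3 to 45.7 CPM in both ages. Erythrocyte markers summed to 18 to 41.3 CPM, B and plasma cell markers to 9.29 to 21.2 CPM with Jchain at 0, and T cell markers to 1.16 to 5.51 CPM with Cd3d, Cd3g and Nkg7 at 0.

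The long noncoding class passed the test with 1 gene, but its share of counts differed. It was 2.44% ± 0.346 at 5m and 1.83% ± 0.237 at 18m (SD, n = 4 each, exact permutation p = 0.0571, adjusted p = 0.0952). Most of the gap between the means lay in the most abundant gene, Gm26917, at 0.886% to 1.55% of counts in the 5m mice and 0.445% to 0.882% in the 18m mice (log2 fold change -0.93 ± 0.212 SE, adjusted p = 0.163). DESeq2 called Gm26917 lower (adjusted p = 0.0196). Without it the class took 1.21% ± 0.0662 and 1.17% ± 0.0994 of counts (SD, n = 4 each, exact permutation p = 0.486). Gm26917 was named after its values were seen.

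Across all genes, the age change in SYN and that in TH could be tested against each other. The TH libraries were deeper than those of SYN input, at 9699909 to 11909098 counts at 5m and 10062547 to 11609407 at 18m. Numbers of calls in the 2 fractions therefore do not compare directly. In TH, 1479 genes were higher and 1329 lower at 18m (8.18% and 7.35% of 18078). By class these were 9.31% and 7.48% of coding genes, 9.68% and 2.3% of small noncoding genes, 2.52% and 9.13% of long noncoding genes and 6.74% and 1.71% of pseudogenes, higher and lower in turn. A joint fit of both fractions tested 17860 genes, where the separate SYN and TH fits had 12926 in common. The age change differed for 432 of the 17860 genes (2.42%), with 180 more positive in SYN (1.01%) and 252 more negative (1.41%). With the mouse as a block the count was 661, 268 and 393. With library size in place of TMM scaling the split was 423 and 200, so the balance of directions rested on the scaling. Of the 432 genes, 242 lay below 0 in SYN and above 0 in TH, 176 above 0 in SYN and below 0 in TH, and 5 on the same side in both. Another 9 had no value in 1 of the separate fits. Genes picked for a large difference between 2 fits centred near 0 tend to opposite signs, so these counts are no separate result. The 24 small noncoding genes among the 432 (13.1%) were all more negative in SYN, as were 71 pseudogenes (5.56%) against 1 more positive (0.0784%). These 24 include 9 copies of U2 and 10 of U1, which are not separate RNAs. Coding genes were more even, with 175 more positive (1.25%) and 153 more negative (1.09%), and of long noncoding genes 2 (0.0861%) and 4 (0.172%) differed. The SYN and TH fits share no library, but their libraries come from the same mice. The count moved with single mice, from 73 without mouse 192 to 381 without mouse 198. With the trends of length and GC removed the count was 27, of which 25 were among the 432, and 8 were U2 genes. Only 2 of these 27 were more positive in SYN, against 25 more negative, and with GC alone removed the split was 3 and 58.

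The coding genes with the largest differences were spread over several functions. Ccnt2, a cyclin of the elongation factor P-TEFb, was at 15.3 ± 2.13 CPM at 5m and 23.6 ± 1.3 CPM at 18m in SYN (SD, n = 4 each), and its age change exceeded that in TH by 0.97 (adjusted p = 0.000125). Fnbp1l, which links membrane curvature to actin (1.02, adjusted p = 0.0116), Fam208b (0.97, adjusted p = 0.00157) and Dcun1d1, a factor of cullin neddylation (0.96, adjusted p = 0.0194), followed. The most negative differences were those of Pcsk1n, an inhibitor of the prohormone convertase PC1 (-1.08, adjusted p = 0.0278), Ppp1r3f (-1.02, adjusted p = 0.0155), the collagen gene Col11a2 (-0.999, adjusted p = 0.0106) and Fance, a gene of the Fanconi anaemia repair pathway (-0.99, adjusted p = 0.0129). With the trends of length and GC removed, 3 of these 8 differences passed, those of Ccnt2 (0.68, adjusted p = 0.0192), Fam208b (0.64, adjusted p = 0.0381) and Pcsk1n (-0.87, adjusted p = 0.0227), and the same 3 passed with GC alone removed. Within SYN alone the adjusted p-values of these 8 genes ran from 0.138 to 0.831 in edgeR's test, and DESeq2 called Col11a2 (adjusted p = 0.0331).

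Ribosome-associated RNA of the same synaptosomes gave 2 genes that differed with age of 14240 (0.014%), AC149090.1 higher (0.00702%) and Tsc22d3 lower (0.00702%), where DESeq2 called 139 higher and 188 lower. Of 14301 genes tested, 0 had an age change that differed between SC_SYN and SYN input with edgeR or with DESeq2 (0.0%), and at an unadjusted p under 0.05 there were 231 higher and 162 lower.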

How the data were processed

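Cortical tissue of 3 ages was fractionated into TH and SYN, and RNA was sequenced before (input) and after (SC) a sucrose cushion, 4 mice a group. Per the labels and the study's methods, the authors depleted rRNA, built strand-preserving libraries with molecular identifiers, used TopHat2 2.1 to place the single-end reads on GRCm38, and summarised them to genes by featureCounts, ignoring strand. Removal of duplicates by identifier is not stated, nor how reads that map to several places were counted, nor which libraries shared a sequencing run. The deposited values are raw counts of 48526 genes in 48 libraries. Symbols, classes and sequences were read from GENCODE M21, and 382 identifiers were not in it (0.0506% of counts).

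The members and gene lists were chosen with earlier results of these data known. The 12 SYN input libraries were fitted with age as group in edgeR 4.0.16 (R 4.3.3): TMM scaling, the filterByExpr filter, the quasi-likelihood test, two-sided, Benjamini-Hochberg adjustment over all genes tested, threshold 0.05. TH and SC_SYN were fitted likewise, and differences between fractions as interaction contrasts over 24 libraries. The fitting code was tested on simulated counts for the SYN input contrast and for its difference from TH. The summing of copies, the removal of GC alone and the tests of shares were not tested in this way. Mice are the replicates, so p-values measure the spread between mice. No pair of replicates agreed within sampling noise (chi-square per degree of freedom 2.19 to 16.9 over 12 pairs). The 18m mice fell into 2 pairs, 195 with 197 (4.02) and 196 with 198 (2.79). Values between these pairs were 12.6 to 16.9. TMM factors were 0.981 to 1.03. Depth per library is given above, and its limits cover counting error only.

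Fractions of 1 mouse come from the same animal, but the differences between fractions were fitted without a term for the mouse, which entered as a block in an alternative. Deviations from the group means of SYN input and TH correlated at a median of 0.106 (0.00336 to 0.201 over 12 mice), and those of SYN input and SC_SYN at 0.146 (-0.53 to 0.528). The lowest of the latter were the 18m mice 197 (-0.53) and 198 (-0.511), while mice 195 and 196 were at 0.35 and 0.528. The cause was not tested.

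Named genes were those past the threshold, without overlap between the ages and with a mean of at least 50 counts (20 for small noncoding genes) in the higher group, ranked by fold change: up to 10 coding, 6 small noncoding and 4 long noncoding genes in each direction. To these came the 2 most abundant and up to 3 called members of each list each way, all structural noncoding RNAs, and 4 coding genes each way for the difference from TH. Gm, Rik and pseudogene symbols were left out among coding genes. Of the 18 called genes, 5 fell outside this rule. Shares of counts were compared by the exact permutation test over 70 assignments. Alternatives were DESeq2 1.42.0, library size or coding genes for scaling, other filters, thinning, GC and length trends (loess, span 0.5), other sets of libraries, the mouse as a block and each mouse left out. The GC trend alone and the summing of copies at 90% identity were chosen after seeing the data.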

Additional observations from a re-analysis of the deposited data

Results flagged for a closer look

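The age change, 18m over 5m, differed between SYN input and TH by the interaction test in edgeR for 432 genes. Among the genes named above, the difference (SYN minus TH, log2) was -2.02 for Gm23472, -2.04 for Gm24497, -2.09 for Gm23444, -1.85 for Gm26316, -1.71 for Gm23849, -1.73 for Gm24950, -1.72 for Gm23971 and -1.78 for Rnu2-10, all copies of U2 that share reads. These 8 differences passed the test under all 17 alternatives run on them. The ribonuclease P RNA Rpph1 gave -0.972, the pseudogenes Rps2-ps13 and Atp6v0c-ps2 gave -1.3 and -0.934, and the long noncoding RNA B230209E15Rik gave 0.815. Among coding genes the values were 1.02 for Fnbp1l, 0.974 for Ccnt2, 0.972 for Fam208b, 0.959 for Dcun1d1, -1.08 for Pcsk1n, -1.02 for Ppp1r3f, -0.999 for Col11a2 and -0.988 for Fance. With the trends of GC and length removed, the calls of Ccnt2, Fam208b and Pcsk1n were kept, and those of the other 5 coding genes, Rpph1, both pseudogenes and B230209E15Rik were lost. No single mouse stood apart by Dixon's criterion in the 64 groups of 4 libraries examined, where chance alone would give about 3.2.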

How the results depend on the processing

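The 18 SYN input calls became 54 with DESeq2, 5 without the GC and length trend, 35 with all 48 libraries in one fit, 102 without a filter and 7 to 19 without single mice. For 7 coding calls these were 25, 4, 29, 41 and 1 to 6, with 4 when only the 8 libraries were fitted. For 8 small noncoding calls they were 15, 0, 4, 27 and 6 to 8, with 1 when copies were summed. The 1 long noncoding call became 2 with DESeq2, 2 with all libraries, 4 without a filter, 0 with 8 libraries and 0 to 1 without single mice, and the 5 calls within the lists became 3, 3 and 18 without the trend, with all libraries and without a filter, and 2 to 5 without single mice. The 2808 TH calls became 782 without the GC and length trend, 183 with all libraries and 1404 to 3389 without single mice. The 2 SC_SYN calls became 327 with DESeq2, 1457 with all libraries, 60 without a filter, 1 with 8 libraries and 0 to 2 without single mice. The 432 differences from TH became 1055 with DESeq2, 27 and 61 without the 2 trends, 670 with at least 10 counts in every library, 277 after thinning, 73 to 381 without single mice and 661 with the mouse as a replicate block, which moved no other count of calls by over 1.5 times. The 0 differences between SC_SYN and SYN input became 1 without a filter and stayed 0 without single mice, and the 12990 between SYN and TH at 5m were 12190 to 12270 without single mice. The difference of -0.324 percentage points in the small noncoding share became -0.209 without Gm23935 (exact permutation p = 0.0571) and -0.387 to -0.242 without single mice, that of 1.35 in the coding share became 1.25 (exact permutation p = 0.0571) and 0.961 to 1.58, and that of -0.0968 in the mitochondrial share ran from -0.298 to 0.123. The cause of these shifts was not tested, apart from the smaller number of samples when a mouse was left out.

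Removing the GC and length trend took the call from U2 in SYN but not from the difference from TH of its 8 called genes. Most small noncoding genes were too low to test. Copies of U2, and likewise those of U1, are not independent, as they share reads. Strand was ignored in counting, so reads of overlapping genes cannot be told apart.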

Other observations

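Lars2, which encodes the mitochondrial leucyl-tRNA synthetase, had the highest log2 fold change among coding genes that did not pass, 2.18 ± 0.658 (SE, adjusted p = 0.281 in edgeR). It was at 18.7 ± 4.97 CPM at 5m and 83.95 ± 108 CPM at 18m (SD, n = 4 each), so that the 18m mice spread widely, and its log2 fold change in TH was 1.33 (adjusted p = 0.038).

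Arl4d, one of the coding genes that were lower at 18m, starts 7113 bases past the end of Rnu2-10 on chromosome 11. Arl4d had a log2 fold change of -0.37 in TH (adjusted p = 0.09), where Rnu2-10 had 0.56. The fall of Arl4d in SYN differed from that in TH by -0.78 (adjusted p = 0.114, and 0.0269 with the mouse as a block).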
